A study of Mus musculus with 5 samples.

Results

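Guides against 5 genes that control the expression of mitochondrial genes were followed in a pooled CRISPR screen of mouse embryonic stem (ES) cells. The genes were found by a rule on gene names, set with earlier results of these data known: Nrf1, Gabpa, Gabpb1, Ppargc1a and Ppargc1b. They held 50 of the 17820 guides of the library, 10 per gene, and 43 of the 50 had enough plasmid reads to be analysed. The rule also named Gabpb2, Tfam, Tfb1m, Tfb2m, Polrmt, the Mterf genes and Pprc1, and no guides were found under these names.

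In a pooled screen each cell receives a lentivirus that carries a guide RNA for Cas9, and reads on a guide report how common the cells with that guide are. The groups were the plasmid pool (2 libraries, replicates 1 and 2 of the plasmid preparation) and transduced ES cells at days 5, 8 and 12 (1 library each). The labels give every library, the plasmid ones included, the genotype Ainv15(iNgn2 Tubb3::GFP) and no treatment, and the protocol keeps transduced cells in ES cell medium under Zeocin. Days are counted after transduction in the titles and after selection in the protocol. Only guide DNA was sequenced, so the cell type could not be set against marker genes.

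The nuclear respiratory factor NRF1 binds GC-rich sites in promoters of nuclear genes for the respiratory chain and for the mitochondrial transcription machinery. GABP, an ETS-family factor that activates many of the same promoters, is built of the DNA-binding alpha subunit (Gabpa) and a beta subunit (Gabpb1) that carries the activation domain. PGC-1alpha (Ppargc1a) and PGC-1beta (Ppargc1b) do not bind these promoters themselves. They are coactivators that join factors such as NRF1 and the estrogen-related receptors, and are best known for raising mitochondrial content in brown fat, muscle and heart. Nrf1 is not Nfe2l1, a bZIP gene that shares the alias and has its own guides here.

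The guides to Nrf1 are shown because they lost the most reads of the 5 genes and because some of them bind overlapping stretches. Each is written 5′ to 3′ as deposited. Capitals mark bases shared with another guide to the same gene, on either strand, in a run of at least 8 bases. Guides left out for low plasmid reads, which are not shown, count as such partners. Nrf1 lies on chromosome 6, 30047985 to 30153458 (RefSeq, GRCm38.p6, a release of the assembly also called mm10). The position of each guide within a gene was not analysed here.
Nrf1 guide 2: ggatgagtacacgacgcgag
Nrf1 guide 3: taccatagaagcccatgcag
Nrf1 guide 4: gcagcagcggccattcccac
Nrf1 guide 5: gctcagtgtacgtggctaca
Nrf1 guide 6: GCGCCAAACACCTTGAAGAC
Nrf1 guide 7: AAACACCTTGAAGACAGGGT
Nrf1 guide 9: aACCCTGTCTTCAAGGTGTT
Nrf1 guide 10: aacgtgtctgctgtctcttt

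The guides to Gabpa (chromosome 16, 84834891 to 84863783) and Gabpb1 (chromosome 2, 126628907 to 126684435), the 2 subunits of GABP, are shown in the same way, since their losses differed from guide to guide.
Gabpa guide 1: gatgcgcttctgcttccgcg
Gabpa guide 2: cgatccagatgcccaccacg
Gabpa guide 3: ccatctcgtcacctgctccg
Gabpa guide 4: GACTGCGGAAACGGTCGagg
Gabpa guide 5: taaGACTGCGGAAACGGTCG
Gabpa guide 6: atagacatcaatgaaccaat
Gabpa guide 10: gatcaaggagtgaaaacaga
Gabpb1 guide 1: ttgcactccataccaaccag
Gabpb1 guide 3: cagcaagtagttagctcagg
Gabpb1 guide 4: atggctgcagcaaaacacac
Gabpb1 guide 5: TGCGGTAACCACTtcctctg
Gabpb1 guide 6: gaagtaaggagccttatacc
Gabpb1 guide 7: cgtagctaatactgacgtag
Gabpb1 guide 8: atacactgtctcttagctgg
Gabpb1 guide 9: AGTGGTTACCGCAGAATCTG
Gabpb1 guide 10: gtatggaaataattgagagc

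The guides to Ppargc1a (chromosome 5, 51454249 to 52115853) are shown next. In the trend described below 5 of the 9 rose, as did 17.8% of all kept guides and 45.5% of the non-targeting control guides.
Ppargc1a guide 1: aaatcagacctgacacaacg
Ppargc1a guide 3: agcgtcacaggtgtaacggt
Ppargc1a guide 4: aaagggccaaacagagagag
Ppargc1a guide 5: aggaatgcaccgtaaatctg
Ppargc1a guide 6: agaatggatatactttacgc
Ppargc1a guide 7: accgcaaagagcACGAGAAG
Ppargc1a guide 8: ATGAGCACGAAaggctcaag
Ppargc1a guide 9: atgaagcctATGAGCACGAA
Ppargc1a guide 10: ACGAGAAGcgggagtctgaa

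The 5 libraries held 1008492 to 3541896 reads. Guides with at least 30 reads in both plasmid libraries were kept, 15336 in all, of which 14443 target 1682 genes and 893 are non-targeting controls. Reads on the kept guides of a gene were added up and scaled to CPM (counts per 1e6 reads). A guide's change is the log2 ratio of its own scaled value plus a pseudocount of 1 to the mean of the plasmid libraries plus 1, or to day 5 where stated, and a gene's median is taken over its kept guides. Days 5, 8 and 12 share the plasmid libraries as reference. With 1 library per time point no difference between a time point and the plasmid pool has a replicate check, and the labels do not say whether time points come from 1 culture. The test is therefore a straight trend over days in all 5 libraries, with the plasmid pool at day 0 and 3 residual degrees of freedom, by edgeR's quasi-likelihood test with Benjamini-Hochberg adjustment. "Fell" and "rose" are used for adjusted p under 0.05 in this trend. Its p-values measure the spread between the plasmid libraries and departures from a straight course, not the spread between cultures. The test draws the spread of each guide or gene toward that of all guides or genes. The p-values therefore do not rest on the 3 residual degrees of freedom of a row alone.

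These calls were common in the whole library. Of all 1682 genes 27.6% fell and 27.9% rose in the trend of summed reads, and of all kept guides 22.9% fell and 17.8% rose. With scaling on the non-targeting guides alone, 1048 genes fell and 21 rose, against 464 and 470 with scaling on all. The non-targeting guides were higher than most guides to genes, with medians of 0.41, 0.54 and 0.58 log2 units at days 5, 8 and 12. Of these controls 45.5% rose and 4.82% fell. A call alone therefore says little about a member, and the size of each member gene relative to the controls is given with it.

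Summed reads of Nrf1, Gabpa and Gabpb1, the genes of the promoter-bound factors, fell, and of their single guides 6 of 8, 5 of 7 and 3 of 9 fell. Nrf1 lost the most, with 24.8% of its plasmid level left at day 12 over summed reads, then Gabpa with 29.3% and Gabpb1 with 56.7%. Every one of their 24 kept guides was below 0 at day 12, against 52.8% of guides to all genes. Summed reads of Ppargc1a rose, to 140.4% of the plasmid level, while 5 of its 9 guides rose and 1 fell. Summed reads of Ppargc1b did not pass the test, at 101.9%. In the trend 3 of the 5 genes fell and 1 rose. Of the 43 kept guides 16 fell and 7 rose. All 7 that rose, and 2 of the 16 that fell, belong to the coactivator genes. Among the members the rises were the less stable calls when plasmid library 1, plasmid library 2 or the day 8 library was left out. In these settings 1, 3 and 4 member guides rose, against 7, and 12, 12 and 14 fell, against 16. Over all kept guides 1403, 1557 and 2118 rose, against 2730 with all libraries. The falls over all kept guides numbered 2198, 2441 and 2964, against 3506. With scaling on the non-targeting guides 28 member guides fell and 0 rose. Of all 15336 kept guides 6562 fell and 527 rose with that scaling, so the shift is not particular to the members.

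Nrf1 had 499 and 613 CPM in plasmid libraries 1 and 2, followed by 248, 154 and 138 CPM on days 5, 8 and 12. The day 12 value has a 95% exact (Clopper-Pearson) interval of 114.6 to 164.7 CPM, which covers counting error only, as do all intervals here. The level was below both plasmid libraries at each day and was lowest at days 8 and 12, whose intervals overlap. The median over 8 kept guides was -1.17, -2.10 and -2.08 on days 5, 8 and 12 (SD over guides 1.32 at day 12), with 8 of 8 guides below 0. The trend was -0.18 log2 units per day (SE 0.021, edgeR adjusted p = 6.98e-05). Relative to the non-targeting median the day 12 median was -2.66. By day 12 median Nrf1 was the 99th lowest of 1682 genes.

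The Nrf1 guides differed widely among themselves. Guide 9 had 163 and 66 reads in the plasmid libraries and then 14, 11 and 1 on days 5, 8 and 12, a log2 change of -4.56 at day 12. Guide 10 had 321 and 143 plasmid reads and 26, 18 and 10 reads at days 5, 8 and 12, or -3.08. Guide 6 had 155 and 69 plasmid reads and 34, 23 and 34 reads, or -0.37, the smallest change of the 8. Guide 6 did not pass the trend test (adjusted p = 0.154), nor did guide 3 (-0.75, adjusted p = 0.240), and the other 6 fell.

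Guides 6, 7 and 9 cover nearly the same bases. Guides 6 and 7 share 15 bases on 1 strand, and guide 9 matches 19 bases of guide 7 and 14 of guide 6 on the opposite strand. The other capitals of guide 6 above mark its match with guide 8, which is not shown. Their day 12 changes were -0.37 for guide 6, -2.32 for guide 7 and -4.56 for guide 9. So guides to 1 stretch of Nrf1 spanned the whole range of the gene. Because they overlap they are not measurements of separate stretches, and where each of them cuts was not analysed. Guide 8 shares 12 bases with guide 6 and was left out for low plasmid reads. It had 47 and 15 plasmid reads, 1 at day 5 and 0 at days 8 and 12, where a count of 0 has a 95% Poisson interval that reaches 3.69 reads. Guide 1, also left out, had 58 and 8 plasmid reads and 3, 1 and 1 reads at days 5, 8 and 12.

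Most Nrf1 guides were lower still at day 12 than at day 5. From day 5 the median change was -0.85 at day 12, with 7 of 8 guides below 0. Over all kept guides to genes the median of this change was -0.038, itself below 0. By its median change from day 5 Nrf1 was the 158th lowest of 1682 genes. Against the plasmid pool the median was already -1.17 at day 5, and guide 5 was the only guide of the 8 not below 0 then. It had 166 and 82 plasmid reads, then 57, 25 and 14 reads on days 5, 8 and 12. Its change was 0.0072 at day 5 and -1.78 at day 12. Guide 7 had 156 and 96 plasmid reads and 12, 11 and 10 reads, and its change at day 5 (-2.24) was close to that at day 12 (-2.32). Of all genes 7.02% had a median of -1 or lower between day 5 and day 12, and none of the 5 genes did.

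Gabpa, the alpha subunit gene, had 491 and 480 CPM in the plasmid pool, followed by 214, 199 and 142 CPM on days 5, 8 and 12 (95% interval at day 12 of 118.7 to 169.6). All 3 cell libraries lay below both plasmid libraries, and the intervals of days 5 and 8 overlap. The trend was -0.15 log2 units per day (SE 0.019, edgeR adjusted p = 0.000131). The median over 7 kept guides was -1.38, -0.73 and -1.19 on days 5, 8 and 12 (SD 1.53), with 7 of 7 guides below 0. Relative to the non-targeting median it stood at -1.77 at day 12. The median at day 8 is nearer 0 than that at day 5 while the summed level was not higher, and the middle guide was guide 10 on day 5, guide 2 on day 8 and guide 5 on day 12. With the mean over guides in place of the median Gabpa stood at -1.83 at day 12.

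Gabpa guides differed in how much they lost. Guide 6 had 164 and 67 plasmid reads, 9 at day 5 and 2 at each of days 8 and 12, a change of -3.97 at day 12. Guide 10, the most common in the pool, had 585 and 166 plasmid reads and 58, 30 and 10 reads, or -3.63. Guide 3 was at -2.40. These 3 guides hold the lowest shares left, 4.47%, 7.44% and 17.4%. Guides 2 and 5 fell less, to -1.11 and -1.19 (adjusted p = 0.0177 and 0.00899). Guides 1 (-0.35) and 4 (-0.18) did not pass, with adjusted p of 0.278 and 0.80. Guides 4 and 5 share 17 bases on the same strand.

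The 2 lowest guides were also the poorest in G or C among the 7 kept: guides 6 and 10 hold 6 and 8 such bases of 20, and guides 1 to 5 hold 11 to 13. Within guides 1 to 5 the changes did not follow the count, since guide 3 (-2.40) holds 13, as guides 1, 2 and 4 do (-0.35, -1.11 and -0.18), and guide 5 (-1.19) holds 11. Among non-targeting guides the change at day 12 was higher by 0.12 log2 units per G or C base. With that line taken out the median of Gabpa was -1.02, -0.99 and -1.38 on days 5, 8 and 12. The part of base composition in the difference between guides was not tested.

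Gabpa guides 8 and 9 are exact reverse complements of each other and had 0 reads in all 5 libraries. The same held for all 220 guides of the library whose reverse complement is another guide: each had 0 reads in all 5 libraries. Of the other 17600 guides 3 had 0 reads in both plasmid libraries. The 0 of Gabpa guides 8 and 9 is already present in the plasmid pool and cannot be read as a loss in cells. Guide 7 was left out for low plasmid reads (51 and 11) and had 8, 6 and 1 reads at days 5, 8 and 12.

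Gabpb1, the beta subunit gene, showed the smallest loss of the 3. It had 438 and 452 CPM in the plasmid pool, followed by 281, 226 and 252 CPM on days 5, 8 and 12 (95% interval at day 12 of 220.2 to 287.5). The cell libraries lay below both plasmid libraries, and the intervals of days 8 and 12 overlap. The trend was -0.081 log2 units per day (SE 0.018, edgeR adjusted p = 0.00426). Without plasmid library 2 the call was lost (adjusted p = 0.0501), as it was under a minimum of 100 plasmid reads, where 1 Gabpb1 guide was left (adjusted p = 0.0745). Without the day 12 library the slope was -0.12. The call was kept in 8 of 10 alternatives.

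The median of Gabpb1 over 9 kept guides was -0.71, -1.11 and -0.68 on days 5, 8 and 12 (SD 0.82), with 9 of 9 guides below 0. Relative to the non-targeting median the day 12 value was -1.26. Guide 1 stood apart, with 119 and 47 plasmid reads and 19, 7 and 3 reads at days 5, 8 and 12, a change of -3.07. The other 8 lay between -1.29 and -0.43. Guides 7 and 8 also fell (-0.83 and -1.29). No other Gabpb1 guide passed. Guide 4 had 126 and 46 plasmid reads, then 15, 3 and 20 reads on days 5, 8 and 12. The 95% Poisson intervals of its day 8 and day 12 reads, 0.62 to 8.77 and 12.2 to 30.9, do not overlap. Its change from day 8 to day 12, 2.56, was the highest of the 43 kept guides. The intervals make no allowance for the choice of 1 guide out of many. Guides 5 and 9 share 13 bases on opposite strands and were close, at -0.77 and -0.43. Guide 2 was left out (58 and 14 plasmid reads) and had 16, 6 and 3 reads.

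Set side by side at day 12, the medians of Nrf1, Gabpa and Gabpb1 were -2.08, -1.19 and -0.68. At day 5 they were -1.17, -1.38 and -0.71. Thus 2 of the 5 genes had a median of -1 or lower at day 12, Nrf1 and Gabpa, against 15.8% of all genes. The count was 2 at day 5 as well (Gabpa and Nrf1), against 6.3% of all genes, and 2 at day 8 (Nrf1 and Gabpb1), against 12.1%. At day 8 Gabpb1 was above -1 with a pseudocount of 5 (-0.97) and after the correction for GC content (-0.70). Among single guides 13 of the 24 were at -1 or lower at day 12, against 21.5% of guides to all genes, and 14 of 24 lay below the fifth percentile of the non-targeting guides (-0.81), against 25.6%. The SDs over guides, 1.32 for Nrf1, 1.53 for Gabpa and 0.82 for Gabpb1, are as large as the gaps between neighbouring medians, and the differences between these genes were not tested.

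Neither coactivator gene fell. Ppargc1a had 440 and 514 CPM in the plasmid pool, followed by 509, 642 and 669 CPM on days 5, 8 and 12 (95% interval at day 12 of 616.6 to 725.6). Days 8 and 12 lay above both plasmid libraries, and day 5 lay between them. The trend was 0.045 log2 units per day (SE 0.010, edgeR adjusted p = 0.00569). With scaling on the non-targeting guides the slope was -0.0031 (adjusted p = 0.851), so the call holds against guides to other genes and is lost against the controls.

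Over its 9 kept guides Ppargc1a had medians of 0.19, 0.47 and 0.79 on days 5, 8 and 12 (SD 1.27), the 39th highest of 1682 genes at day 12. Of all genes 1.19% had a median of 1 or higher at day 12, and none of the 5 did. Relative to the non-targeting median Ppargc1a stood at 0.20. Guide 5 had 73 and 53 plasmid reads and 42, 58 and 71 reads at days 5, 8 and 12, a change of 1.32, the highest of the 43 guides. Guides 3, 4, 8 and 9 also rose, to between 0.79 and 1.01. Guides 8 and 9 share 11 bases. Guide 1 went the other way, with 152 and 61 plasmid reads and 11, 15 and 5 reads, and fell to -2.83. Guides 6, 7 and 10 were at -0.13, -0.55 and -0.07 and did not pass. The mean over the guides, 0.14, is therefore far below the median of 0.79.

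Ppargc1b (chromosome 18, 61291445 to 61400756) had 602 and 666 CPM in the plasmid pool, followed by 701, 745 and 646 CPM on days 5, 8 and 12 (95% interval at day 12 of 593.8 to 700.9). The day 12 level lay between the plasmid libraries. Its trend of 0.0097 log2 units per day (SE 0.0099) did not pass (edgeR adjusted p = 0.425). The sign and the call depended on the setting. Without the day 12 library the gene rose (0.030, adjusted p = 0.0426), and with scaling on the non-targeting guides it fell (-0.039, adjusted p = 0.00748).

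The median of Ppargc1b over 10 guides, all kept, was 0.24, 0.25 and 0.10 on days 5, 8 and 12 (SD 0.86), with 5 of 10 below 0. Relative to the non-targeting median it stood at -0.48 at day 12. Guides 5 and 8 rose, both to 0.73 or just under (0.725 and 0.723). Guide 1 had 151 and 42 plasmid reads and 17, 17 and 7 reads at days 5, 8 and 12, and fell to -2.16. Guides 8 and 9 share 14 bases on opposite strands and ended at 0.72 and -0.50. In both coactivator genes 1 guide fell far below the rest, and the other 17 of their 19 guides lay between -0.55 and 1.32.

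Other regulators of mitochondrial genes moved in both directions, at about the rate of the whole library. The list held 29 genes: nuclear receptors, stress factors, coregulators and promoter-binding factors, all with guides in the library. In the trend 7 of 29 fell (24.1%, against 27.6% of all genes) and 6 rose (20.7%, against 27.9%). Their median at day 12 was -0.078, against 0.0090 over all genes, and 4 of 29 had a median of -1 or lower (13.8%, against 15.8%).

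Among the 29, Sp1, a zinc-finger factor of GC-rich promoters, was lowest. Its median at day 12 was -3.02 (SD 1.63, 6 of 7 guides below 0, edgeR adjusted p = 1.57e-05). Hcfc1, a coregulator known to bind GABP and other promoter factors, fell to -2.15 with 10 of 10 guides below 0. The stress factor gene Atf4 (-1.39) and the nuclear receptor corepressor genes Nrip1 (-1.37) and Ncor1 (-0.14) fell too. So did Creb1 (-0.56) and Atf5 (-0.25). Rxra, the retinoid X receptor alpha gene, was highest at 1.09 (SD 0.40, 0 of 9 guides below 0, edgeR adjusted p = 6.79e-05). The forkhead gene Foxo3 (0.57), the fatty acid receptor gene Ppara (0.55), Mef2c (0.22) and the oxidative stress factor gene Nfe2l2 (0.058) rose as well. Esrrb, an estrogen-related receptor gene of the pluripotency network, rose in summed reads (0.039 log2 units per day, adjusted p = 0.0422) although its median at day 12 was -0.16. Of the nuclear receptors in the list, Esrra (-0.02), Esrrg (-0.20), Pparg (0.067), Ppard (0.22) and Thra (-0.11) did not pass. The others, Rxra, Ppara and Esrrb, rose as given above.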

How the data were processed

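Guide DNA was sequenced from 2 plasmid and 3 ES cell libraries. The authors deposited whole-number read counts for each guide, with no normalization, per the file headers. The submitters' processing notes name cutadapt, Bowtie, featureCounts and mm10 and give no version; how reads were matched to guides is not given in the sources used here.

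Members were found by gene name, and members, lists and tests were chosen with earlier results of these data known. A minimum of 30 reads in each plasmid library was set. Scaling used TMM, separately for guides and for gene sums. Trends over days were fitted on all 15336 kept guides and on all 1682 genes with edgeR 4.0.16 in R 4.3.3. The fit was also run on simulated counts with straight courses and a fixed spread, which cannot show how well it suits these libraries. DESeq2 1.42.0 was an alternative. The other alternatives changed normalization, filter, pseudocount, the summary over guides, GC content, the zero point or left out a library. All member genes are named; of the other 29 regulators, those past the threshold, with the lowest and highest medians. The receptors named as not passing were added after their values were seen. Of 11 names of genes for mitochondrial DNA maintenance and expression that were looked up, 0 were found in the library. Gene positions are from RefSeq GRCm38.p6. The median read count over kept guides was 178 and 68 in the plasmid pool and 53, 53 and 47 on days 5, 8 and 12.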

Additional observations from a re-analysis of the deposited data

How the results depend on the processing

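The calls on Nrf1 and Gabpa in the trend of summed reads were kept in 10 of 10 alternatives, Gabpb1 fell in 8 and Ppargc1a rose in 9. The day 12 medians of Nrf1, Gabpa, Gabpb1 and Ppargc1a kept their sign in 12 of 12 alternatives, with ranges of -2.66 to -1.78, -2.49 to -1.05, -1.26 to -0.48 and 0.14 to 0.89; Ppargc1b kept its sign in 7 of 12. Scaling on non-targeting guides gave 28 falling and 0 rising member guides and 0 rising member genes (6562 falling and 527 rising guides in all, against 3506 and 2730). At least 100 plasmid reads left 8 member guides, of which 4 fell and 1 rose. Of the 4452 guides left in all, 1139 fell and 982 rose. Rising member guides numbered 1 without plasmid library 1, 3 without library 2 and 4 without the day 8 library, against 7. Rising genes over the whole library numbered 261 and 281 without plasmid libraries 1 and 2, against 470, and rising guides 1403 and 1557; falling guides numbered 2198 without library 1. Without the day 12 library 2 member genes rose, and 414 of all 1682 genes did. At day 8, 1 member gene was at -1 or lower with a pseudocount of 5 or after the GC correction. For day 12 against day 5, 1 was at -1 or lower with non-targeting scaling, with at least 100 plasmid reads, with the mean over guides, or with the zero at the non-targeting median. The cause of these changes was not tested. No paired analysis was possible because each time point has 1 library. Guides with a few reads at day 12, such as Nrf1 guide 9 (1 read, 95% Poisson interval 0.025 to 5.57), have a loss whose size depth limits.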

Other observations

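Every guide in the library whose exact reverse complement is also a library guide, 220 of 17820, had 0 reads in all 5 libraries, the plasmid pool included. Of the 223 guides with 0 reads in both plasmid libraries, 220 were of this kind, 2 were 1 sequence listed under more than 1 name, and 1 was neither. These are the counts as deposited, and the cause was not tested. For Gabpa this concerns guides 8 and 9.

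Nrf1 guides 6, 7 and 9, which overlap, had 34, 10 and 1 reads at day 12, from 155 and 69, 156 and 96, and 163 and 66 reads in the plasmid libraries. Ppargc1b guides 8 and 9, which also overlap, had 74 and 73 reads at day 12, from 149 and 72, and 355 and 165 plasmid reads. Over all 5 genes, 11 overlapping pairs had both guides kept. Their day 12 changes differed by more than 1 log2 unit in 5 pairs and by 0.049 to 0.78 in the other 6. Of the 5 pairs, 3 are formed by Nrf1 guides 6, 7 and 9 alone and so are not independent. Pairs of guides that do not overlap, and pairs in the rest of the library, were not compared. Ppargc1a guides 8 and 9 were close, at 0.79 and 0.84, as were Ppargc1b guides 2 and 3, which share 16 bases, at -0.02 and -0.24.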
